A study of Mus musculus with 10 samples.

Results

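The IL-2 and IL-7 receptor axis was examined as 8 genes: the cytokine Il2, the receptor chains Il2ra, Il2rb, Il2rg and Il7r, the transcription factors Stat5a and Stat5b, and the phosphodiesterase Pde3b. A gene entered through every probe set of the array table that is annotated to its symbol alone. This gave 7 genes of the 18193 genes so represented, with 12 probe sets of 34945. Il2rg, the shared gamma chain, is not analysed here, because the annotation attaches no probe set to that symbol alone.

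IL-2 is secreted by activated conventional T cells and binds a receptor made of IL2RA (CD25), IL2RB and the shared gamma chain. IL-7 binds IL7R (CD127) together with the same gamma chain, and both receptors signal through JAK kinases to the STAT5 factors. Regulatory T cells (Treg) are known for high CD25, for low CD127 in resting cells, and for making little IL-2, and Foxp3 is the transcription factor that defines them. PDE3B breaks down cyclic AMP and is known as a gene that Foxp3 represses in Treg.

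The 10 arrays measured CD4+ T cells from the spleen of mice given as DEREG on a Balb/c background, in 5 groups of 2. DEREG mice carry GFP under the Foxp3 promoter, so GFP marks the use of that promoter and not the Foxp3 protein. All cells were activated through CD3 and CD28, received a retrovirus (pGCSamIN, with an NGFR marker), and were sorted for NGFR. Treg mock cells were GFP+ cells from DEREG mice with the empty virus. Tconv mock and Tconv Foxp3 cells were GFP- conventional T cells from DEREG mice with the empty virus or with virus carrying Foxp3. Scurfy mock and scurfy Foxp3 cells were GFP+ cells from mice abbreviated D_S, read here as DEREG/Scurfy, a strain whose own Foxp3 gene is mutated, again with the empty or the Foxp3 virus. The titles call the GFP+ starting cells epigenetics(+) and the GFP- starting cells epigenetics(-). The labels give no age or sex. Nor do they state whether the replicates of a group are different mice or different cultures, and the p-values therefore cover the spread between arrays, which may be technical.

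Array medians lay between 18.8 and 36.5 intensity units. The 7 measured pan T cell markers, Cd4 and Cd3e among them, were above the array median on every array, with a summed intensity of 20815 to 30622. For Foxp3 itself the Treg mock arrays read 2130 and 3128, scurfy mock 1188 and 1114, scurfy Foxp3 948 and 691, Tconv mock 53.9 and 35.9, and Tconv Foxp3 18.0 and 18.9. This probe set was therefore not higher on the arrays labelled Foxp3 than on their mock counterparts. Whether it reads the transcript of the vector was not tested, so every direction below that involves "Foxp3" arrays rests on their labels. The 2 scurfy mock arrays were the least alike pair (r = 0.92 over all tested probe sets), and scurfy mock replicate 2 matched scurfy Foxp3 replicate 1 best (r = 0.972). Among markers of other cells, the summed NK cell list (6 of 7 genes measured) was 549 on scurfy mock replicate 1 and 11.1 to 127 on the other arrays. On that array Klrk1 read 323 and Eomes 203, while the defining genes Ncr1 and Klra8 were near 0 (0.49 and 0.36). Of the 6 measured genes, 4 were below the median of that array. The B cell list (9 of 10 genes measured) summed to 1808 on scurfy Foxp3 replicate 2 and to 110 to 797 on the others. Of these 9 genes, 0 were below the median of that array, and 3 to 8 were on the others. The part of this signal in the scurfy Foxp3 values below was not tested.

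Across the arrays Il2 was high where Il7r and Il2rb were low. Il2 was highest, and Il7r, Il2rb and the first Il2ra probe set lowest, in conventional T cells labelled Foxp3. The 3 GFP+ groups, Treg and scurfy, averaged less Il2 and more Il7r than the 2 GFP- groups. Differences are given below as log2 of intensity plus 16 with the standard error (SE) of a limma fit over all 10 arrays, and a difference was called at a Benjamini-Hochberg adjusted p under 0.05 across the 21735 probe sets tested.

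**Figure D1:**
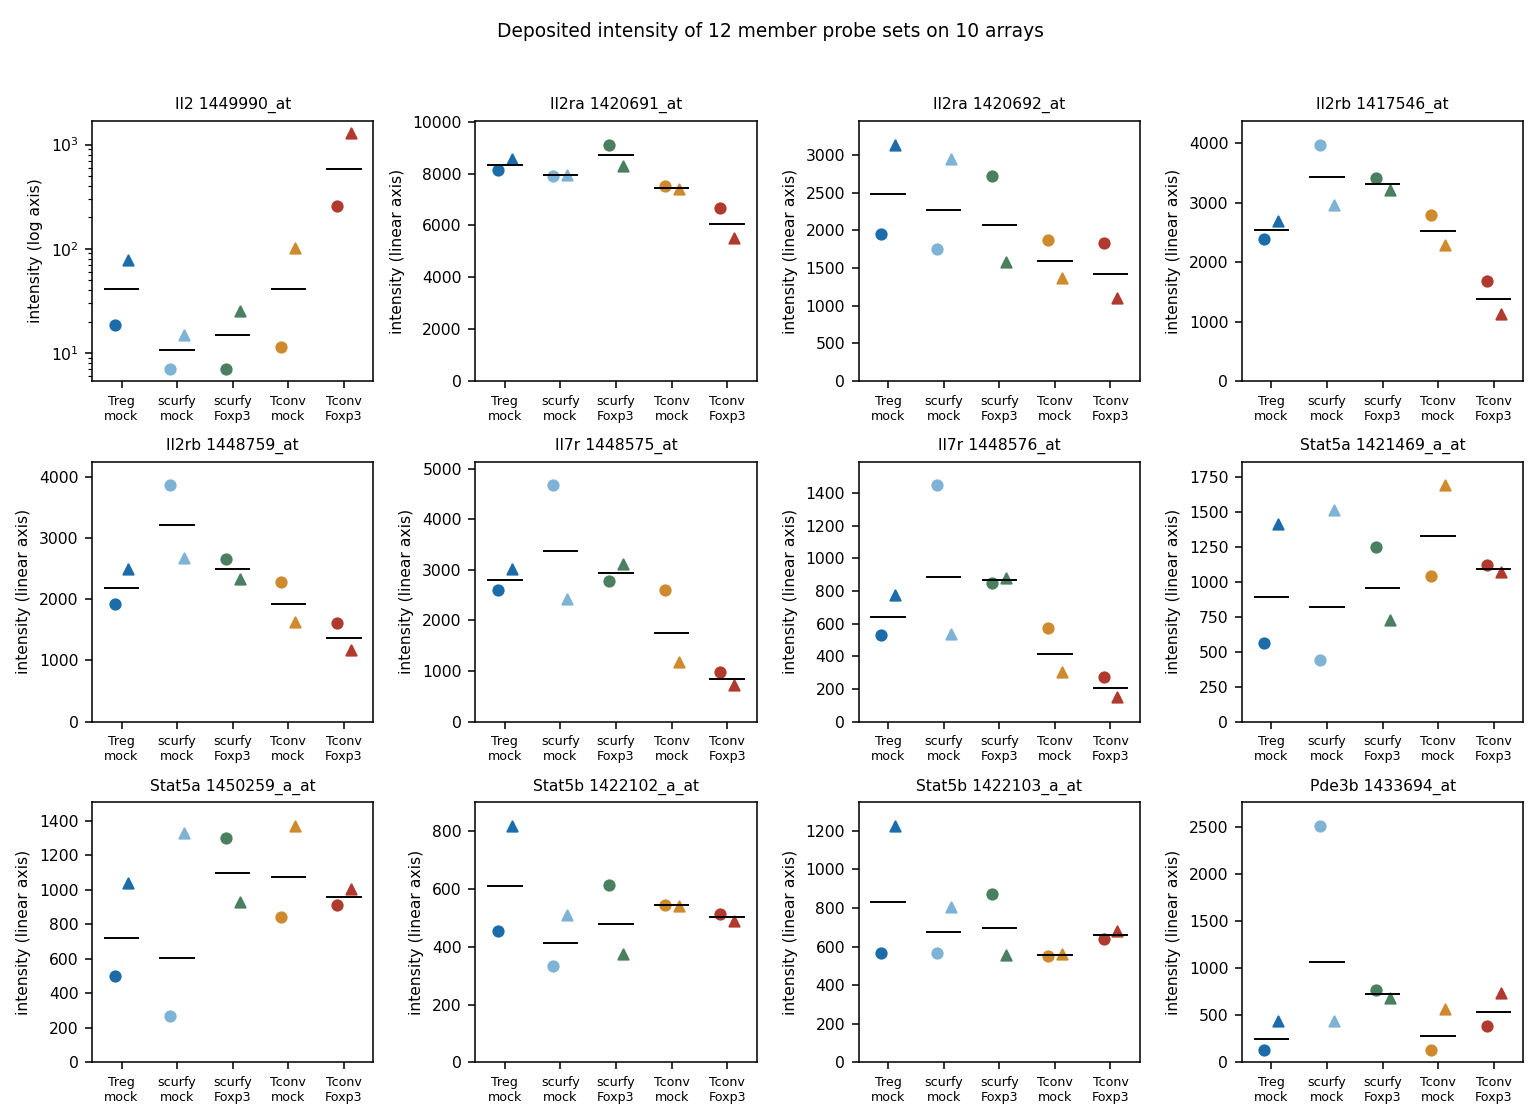
Intensity (vertical axis, array units) of each of the 12 member probe sets on every array, by group; circles are replicate 1, triangles replicate 2, and the black bar is the group mean of log2(value + 16) turned back into intensity. The Il2 panel has a log axis and the others start at 0; both Tconv Foxp3 arrays lie above all others for Il2 and below all others for both Il7r probe sets.

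The promoters of Il2 and Il7r are shown because these are the 2 members with a called difference. Each is the RefSeq sequence (build GRCm38.p6) just before the annotated start of the gene, read on the minus strand. The Il2 stretch is chr3:37125955-37126204 (250 bases) and the Il7r stretch chr15:9529942-9530126 (185 bases, the part of the listed window that lies outside the gene). Capitals mark the NFAT core GGAAA on either strand and the STAT motif TTCNNNGAA.
Il2: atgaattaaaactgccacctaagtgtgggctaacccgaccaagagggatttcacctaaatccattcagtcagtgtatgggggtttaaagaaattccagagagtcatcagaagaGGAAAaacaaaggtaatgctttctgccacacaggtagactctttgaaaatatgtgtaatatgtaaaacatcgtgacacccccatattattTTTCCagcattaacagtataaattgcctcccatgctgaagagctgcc
Il7r: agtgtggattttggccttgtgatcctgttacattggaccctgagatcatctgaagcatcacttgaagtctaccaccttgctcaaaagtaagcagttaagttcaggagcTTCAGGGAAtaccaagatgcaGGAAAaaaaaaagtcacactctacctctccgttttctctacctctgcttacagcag

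The Il2 stretch holds 2 matches to the NFAT core and none to the STAT motif, the RUNX core TGTGGT, the forkhead motif GTAAACA or the AP-1 motif TGANTCA. The Il7r stretch holds 1 match to the NFAT core and 1 to the STAT motif, which do not overlap, and none to the other 3. Among 32851 promoter windows, 55.6% hold an NFAT core in 250 bases and 46.2% in 185 bases, and 5.4% hold the STAT motif in 185 bases. These matches describe letters only.

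Il2 encodes the growth factor of activated T cells. Its probe set (1449990_at) read 254 and 1298 in Tconv Foxp3. Tconv mock gave 11.3 and 101, Treg mock 18.4 and 77.9, scurfy mock 6.96 and 14.8, and scurfy Foxp3 7.01 and 25.0. Both Tconv Foxp3 arrays lay above all 8 others, and the other 4 groups overlapped one another in part. In every group replicate 2 read higher than replicate 1. On 5 of the 10 arrays Il2 was below the array median, so its low values are close to background and carry little order.

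Among the arrays labelled Foxp3, Il2 was lower in cells that started GFP+ and scurfy than in cells that started as Tconv, by -4.28 (SE 0.84, 95% interval -6.16 to -2.40, limma adjusted p = 0.0425, 2 arrays against 2). Of all probe sets, 1.49% were called in this comparison and 0.359% were called lower; Il2 was the member called. The call was lost without either Tconv Foxp3 array or either scurfy Foxp3 array, with values from -5.42 to -3.14 and adjusted p of 0.0555 to 0.338. It was also lost with quantile normalization (-4.12, adjusted p = 0.0536). Il2 stayed lower in each of these fits.

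Within conventional T cells, Il2 was 3.39 higher in the Foxp3-labelled than in the mock arrays (SE 0.84, 95% interval 1.52 to 5.27), which did not pass the test (limma adjusted p = 0.179). Leaving out one array at a time gave 2.25 to 4.54. In all, 0.0276% of all probe sets were called in that comparison, no member among them, and 13.7% had an unadjusted p under 0.05. The same contrast in scurfy cells gave 0.21 for Il2 (SE 0.84, adjusted p = 1). No probe set of the table was called there by limma, and 4.21% had an unadjusted p under 0.05. The difference between the 2 effects was -3.19 for Il2 (SE 1.19, 95% interval -5.84 to -0.53, limma adjusted p = 0.613), and -4.33 to -2.05 when an array was left out. No probe set was called for that difference either, with 8.12% at an unadjusted p under 0.05.

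Between Treg mock and Tconv mock, Il2 differed by 0.00 (SE 0.84, 95% interval -1.87 to 1.88). The interval is wide, because replicates of each group differed by several fold. Over all arrays, the 3 GFP+ groups averaged 2.35 lower than the 2 GFP- groups (-2.35, SE 0.54, 95% interval -3.57 to -1.14, limma adjusted p = 0.0478). In this comparison 3.4% of all probe sets were called, 0.819% of them lower and 2.59% higher. Individual arrays overlapped: the GFP+ arrays spanned 6.96 to 77.9 and the GFP- arrays 11.3 to 1298. The Il2 call was kept without scurfy mock replicate 2, Tconv Foxp3 replicate 1 or Tconv mock replicate 1, and was lost without each of the other 7 arrays (adjusted p = 0.0693 to 0.181). With the mock groups alone, a setting chosen after seeing the data, the difference was -0.54 (adjusted p = 0.728). The called difference includes the high values of the arrays labelled Tconv Foxp3, and the mock arrays alone did not show it.

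Il2ra encodes CD25, the chain that raises the affinity for IL-2. It was strongly expressed on all arrays, at the 99th percentile of its array or above for the first probe set (1420691_at; lowest percentile 99.2). By that probe set, Treg mock gave 8127 and 8558, scurfy mock 7902 and 7962, scurfy Foxp3 9123 and 8310, Tconv mock 7507 and 7422, and Tconv Foxp3 6657 and 5518. All 6 GFP+ arrays lay above all 4 GFP- arrays, the one member probe set of 12 with no overlap there, where 5.61% of all probe sets had none. The difference was 0.31 (SE 0.17) and did not pass the test (limma adjusted p = 0.343). These intensities were not rescaled. At a common 75th percentile this probe set was lower in Treg mock and in scurfy mock than in Tconv mock (-0.19 and -0.23). The separation of the arrays therefore did not hold at that scaling. The second probe set (1420692_at) ranged from 1106 in a Tconv Foxp3 array to 3137 in a Treg mock array, and its GFP+ and GFP- arrays overlapped. Its difference was 0.58 (SE 0.28, limma adjusted p = 0.275). In Treg against Tconv mock the 2 probe sets differed by 0.16 (SE 0.26) and 0.63 (SE 0.43), neither of which passed the test (adjusted p = 0.799 and 0.502). In that comparison 1.19% of all probe sets were called and none of the 12 of the axis.

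**Figure D2:**
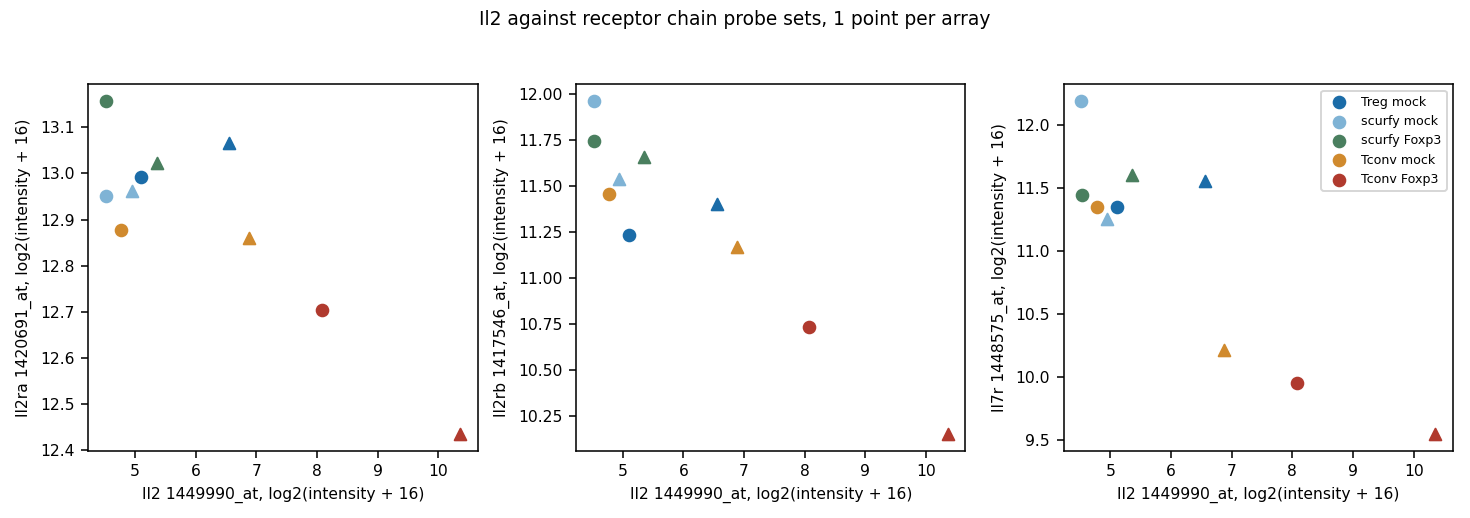
Il2 (horizontal axis) against the first Il2ra, Il2rb and Il7r probe sets (vertical axes), both as log2(intensity + 16), 1 point per array, coloured by group, with circles for replicate 1 and triangles for replicate 2. The 2 Tconv Foxp3 arrays stand apart at the high end of Il2 and the low end of the receptors.

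Il2rb encodes the signalling chain shared by the IL-2 and IL-15 receptors. Its first probe set (1417546_at) read 1689 and 1122 in Tconv Foxp3, the lowest of all. Tconv mock read 2799 and 2290, Treg mock 2396 and 2692, scurfy mock 3982 and 2968, and scurfy Foxp3 3418 and 3217. Treg and Tconv mock overlapped, and all 4 scurfy arrays lay above both by this probe set. Scurfy Foxp3 exceeded Tconv Foxp3 by 1.26 (SE 0.31, 95% interval 0.57 to 1.95), without passing the test (limma adjusted p = 0.0861). GFP+ exceeded GFP- by 0.71 (SE 0.20, adjusted p = 0.0853). The second probe set (1448759_at) gave 0.85 (SE 0.33) and 0.67 (SE 0.21) for these comparisons, with adjusted p of 0.261 and 0.12. By this second probe set scurfy Foxp3 replicate 2 (2329) lay below Treg mock replicate 2 (2494). The highest Il2rb value by both probe sets (3982 and 3858) was on scurfy mock replicate 1, the array where Klrk1 and Eomes of the NK cell list were raised. Without it GFP+ exceeded GFP- by 0.64 (adjusted p = 0.152) and 0.58 (adjusted p = 0.211). The part of the raised genes of that list in these values was not tested. In conventional cells the Foxp3-labelled arrays were lower by both probe sets, at -0.87 (SE 0.31) and -0.48 (SE 0.33), neither called (adjusted p = 0.288 and 0.528). The arrays of these groups did not overlap for either Il2rb probe set, nor for 6 others of the 12 members (8 in all), against 58.4% of all probe sets.

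Il7r encodes the alpha chain of the IL-7 receptor. By the first probe set (1448575_at), Tconv Foxp3 read 980 and 735, Tconv mock 2599 and 1177, Treg mock 2595 and 3008, scurfy mock 4671 and 2426, and scurfy Foxp3 2777 and 3108. By the second (1448576_at), Tconv Foxp3 read 276 and 150, Tconv mock 571 and 302, Treg mock 530 and 774, scurfy mock 1447 and 539, and scurfy Foxp3 851 and 879. Tconv Foxp3 was lowest by both, and the Tconv mock pair was spread, with its first replicate within the range of the GFP+ arrays. The Treg mock arrays were not lower than the Tconv mock arrays by either probe set: the differences were 0.67 (SE 0.43, 95% interval -0.29 to 1.63) and 0.60 (SE 0.50, 95% interval -0.51 to 1.72), neither called (adjusted p = 0.476 and 0.589).

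GFP+ cells had more Il7r than GFP- cells, by 1.30 (SE 0.28, 95% interval 0.68 to 1.92, limma adjusted p = 0.0365) and 1.38 (SE 0.32, 95% interval 0.66 to 2.11, limma adjusted p = 0.0493), which is 2.46-fold and 2.61-fold on the log2(value + 16) scale. Il7r and Il2 were the 2 of 7 member genes called. Of all probe sets, 3.4% were called. Over all genes, each read by 1 probe set, 526 of 11318 were called. That count is not like for like, because a member gene counted when any of its probe sets was called. With the mock groups alone the Il7r differences were 0.80 (adjusted p = 0.303) and 0.83 (adjusted p = 0.352), neither called. The highest value of each probe set was on scurfy mock replicate 1, the array where Klrk1 and Eomes of the NK cell list were raised. Without that array the differences were 1.14 (adjusted p = 0.0564) and 1.15 (adjusted p = 0.0609), close in size and no longer called. Leaving out any other single array also ended the call of the first probe set, except scurfy mock replicate 2 and Tconv mock replicate 1, and that of the second, except scurfy mock replicate 2 (differences from 1.02 to 1.58 and from 1.15 to 1.62). The part of the raised genes of the NK cell list in the result was not tested.

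Between the Foxp3-labelled groups, scurfy exceeded Tconv by 1.77 (SE 0.43, adjusted p = 0.0841) and 2.00 (SE 0.50, adjusted p = 0.0931) for Il7r, without overlap and without passing the test. Of all probe sets 46.3% did not overlap there, and 6 of the 12 members. Foxp3-labelled against mock gave -1.03 (SE 0.43, adjusted p = 0.341) and -0.97 (SE 0.50, adjusted p = 0.422) in conventional cells. In scurfy cells it gave -0.20 (SE 0.43) and -0.03 (SE 0.50), both with an adjusted p of 1. Tconv Foxp3 against Treg mock gave -1.70 (SE 0.43, adjusted p = 0.154) and -1.58 (SE 0.50, adjusted p = 0.245), and Il2 gave 3.39 (SE 0.84, adjusted p = 0.147). No member was called in that comparison, where 0.575% of all probe sets were. Several of these comparisons share the Tconv Foxp3 arrays or the Treg mock arrays and are not independent of one another. In such bulk RNA, fewer cells expressing a gene and less RNA per cell cannot be told apart.

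**Figure D3:**
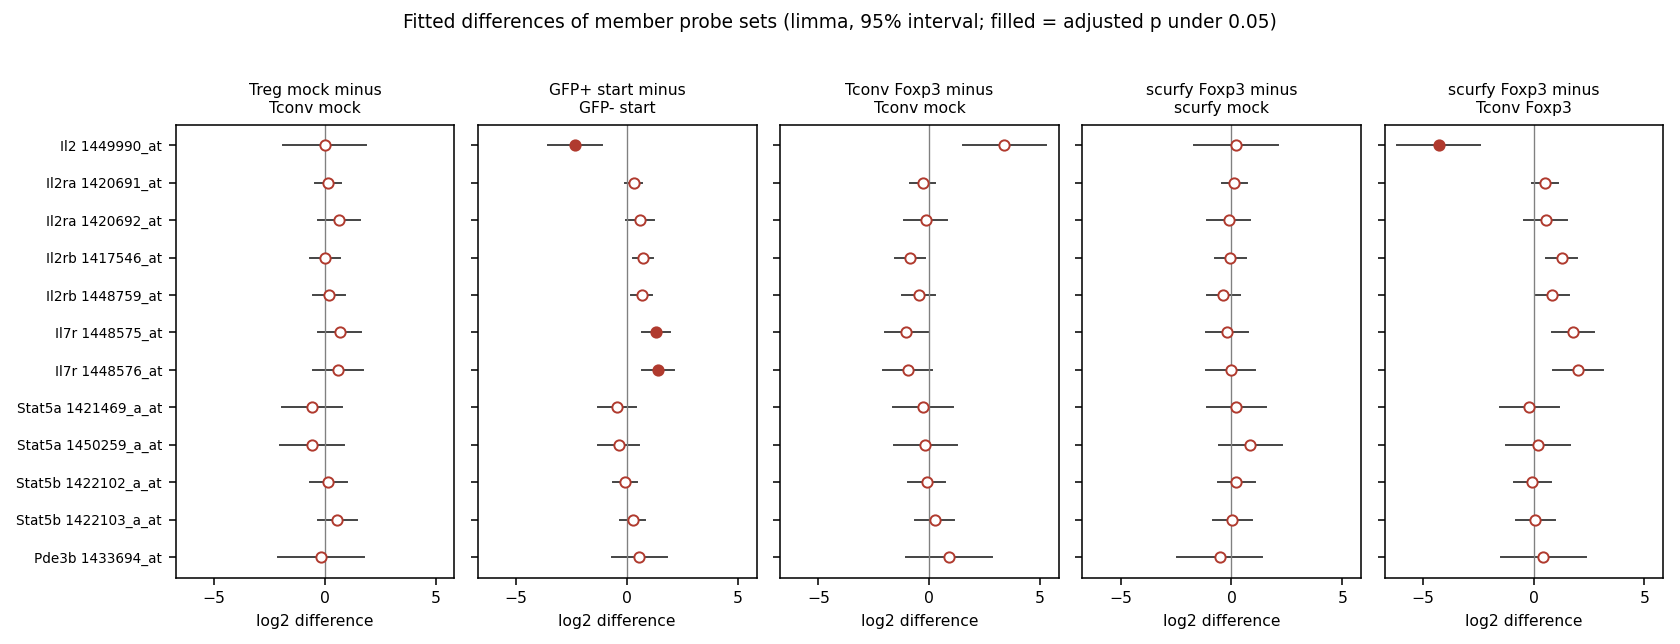
Difference in log2(value + 16) (horizontal axis) for each member probe set in 5 comparisons, with bars for the 95% interval of the limma fit; filled points have an adjusted p under 0.05. Filled points are Il2 and both Il7r probe sets in GFP+ against GFP-, and Il2 in scurfy Foxp3 against Tconv Foxp3.

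Stat5a and Stat5b encode the factors that carry the signal of both receptors to the nucleus. By the first Stat5a probe set (1421469_a_at), Treg mock read 559 and 1411, scurfy mock 440 and 1510, scurfy Foxp3 1246 and 726, Tconv mock 1044 and 1688, and Tconv Foxp3 1118 and 1069. Replicates of the Treg and scurfy mock groups spanned nearly the whole range of the gene. The second probe set (1450259_a_at) showed the same spread, from 269 to 1331 within scurfy mock alone. Stat5b ranged from 334 to 817 over all arrays by one probe set (1422102_a_at) and from 551 to 1225 by the other (1422103_a_at). Neither gene was called in any of the 10 comparisons. For Treg against Tconv mock the values were -0.57 (SE 0.60) and -0.57 (SE 0.64) for Stat5a and 0.16 (SE 0.37) and 0.57 (SE 0.40) for Stat5b, with adjusted p from 0.511 to 0.866. The widest of these 95% intervals, -2.00 to 0.86, covers changes in both directions.

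Pde3b encodes a phosphodiesterase that degrades cyclic AMP. Its probe set (1433694_at) gave 2510 and 445 for scurfy mock, 773 and 683 for scurfy Foxp3, 132 and 572 for Tconv mock, 386 and 739 for Tconv Foxp3, and 136 and 439 for Treg mock. Scurfy mock replicate 1 was far above every other array, and the first replicates of Treg and Tconv mock were the lowest. Both Treg arrays lay below all 4 scurfy arrays. Scurfy mock exceeded Treg mock by 2.03 (SE 0.86, 95% interval 0.11 to 3.96, limma adjusted p = 0.599), and leaving out one array at a time gave 0.81 to 3.26. Scurfy Foxp3 exceeded Treg mock by 1.50 (SE 0.86, adjusted p = 0.687). No member was called in either comparison, where 0.179% and 0.115% of all probe sets were. Groups did not overlap for 5 and 3 of the 12 members, against 32.4% and 31.5% of all probe sets. Against Tconv mock, scurfy mock was 1.87 higher (SE 0.86, adjusted p = 0.394), with 0.64 to 3.10 when an array was left out. Again no member was called, and 0.432% of all probe sets were. Treg against Tconv mock gave -0.17 (SE 0.86, adjusted p = 0.949), so a lower Pde3b in Treg was not detectable with these arrays. The array with the high Pde3b value was the one where Klrk1 and Eomes of the NK cell list were raised. The part of that in the value was not tested.

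The 12 member probe sets had a median difference of 0.43 in GFP+ against GFP-, beside 0.10 over all probe sets. The medians were 0.48 and -0.08 in scurfy Foxp3 against Tconv Foxp3, and -0.22 and 0.27 in conventional cells labelled Foxp3 against mock. In Treg against Tconv mock they were 0.16 and 0.24.

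At an unadjusted p under 0.05, members passed in 5 of the 8 comparisons without a called member. Tconv Foxp3 against Treg mock had 4 of 12 (Il2, Il2rb and both Il7r probe sets), against 12.4% of all probe sets. Conventional cells labelled Foxp3 against mock had 3 (Il2, Il2rb and Il7r), against 13.7%. The difference between the Foxp3 effects had 1 (Il2), scurfy mock against Treg mock 1 (Pde3b, against 7.8%), and scurfy mock against Tconv mock 1 (Il2rb, against 13.1%). The count was 0 in Treg against Tconv mock (16.6% of all), in scurfy Foxp3 against Treg mock (8.86%) and in scurfy Foxp3 against scurfy mock. Groups did not overlap for 3 of the 12 members in Treg against Tconv mock (52.6% of all probe sets), 5 in scurfy mock against Tconv mock (49.5%), 7 in Tconv Foxp3 against Treg mock (48.2%) and 2 in scurfy Foxp3 against scurfy mock (22.9%).

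Across the 10 arrays, which share groups, Il2 ran against Il2rb (first probe set, r = -0.94, rho = -0.89) and Il7r (r = -0.88, rho = -0.70). Without the 2 arrays farthest from the median of Il2 these were -0.68 and -0.64. For Il2ra the r of -0.86 fell to -0.22, so it rests on those arrays. Il2rb and Il7r rose and fell together (first probe sets, r = 0.93). The paired probe sets of a gene tracked each other at 0.97 for Il7r, 0.94 for Il2rb, 0.92 for Stat5a, 0.78 for Stat5b and 0.72 for Il2ra. Among 10780 genes searched, the pattern closest to Il7r over the 10 arrays was that of Prdm1 (r = 0.98), which encodes the repressor Blimp-1. The closest to Il2ra was Ctla4 (r = 0.97), a Treg surface receptor, and the closest to Il2rb was Entpd1 (r = 0.97), which encodes CD39. Il2 was closest to Riox1 (r = 0.97) and then Cblb (r = 0.96), a ubiquitin ligase that restrains T cell activation. The leading genes for Stat5a, Stat5b and Pde3b were Evi5 (r = 0.90), Mtif2 (r = 0.95) and Ing5 (r = 0.96).

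The rest of the pathway was read from 8 lists of genes. Their probe set counts stand beside the 3.4% of all probe sets called in GFP+ against GFP-. Read by 1 probe set per gene, a separate count, 526 of 11318 genes were called. A list gene counted when any of its probe sets was called. Of the 15 genes known to respond to STAT5 that were tested, Socs2 rose and Myc fell in GFP+ against GFP- cells, and 13 were not called (6 of 46 probe sets called). Socs2 encodes a feedback inhibitor of cytokine signalling. By its brightest probe set (1418507_s_at), Treg mock read 1313 and 1996, scurfy mock 1271 and 1752, scurfy Foxp3 1743 and 1453, Tconv mock 804 and 364, and Tconv Foxp3 671 and 525. All 6 GFP+ arrays lay above all 4 GFP- arrays. The difference was 1.44 (SE 0.26, limma adjusted p = 0.0202), and 4 further Socs2 probe sets were called in the same direction (0.96 to 1.80, adjusted p = 0.0195 to 0.044). Myc, which drives growth and proliferation, read 1070 and 692 in Treg mock, 191 and 393 in scurfy mock, 406 and 532 in scurfy Foxp3, 901 and 919 in Tconv mock, and 1423 and 1520 in Tconv Foxp3. The Treg and Tconv mock arrays overlapped, the scurfy arrays were lowest and the Tconv Foxp3 arrays highest. In GFP+ against GFP- Myc fell by 1.24 on the log2 scale (SE 0.24, limma adjusted p = 0.0247). The 46 probe sets of this list had a median of 0.26 in that comparison.

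Among 18 tested regulators of the Il2 gene, Prdm1, known as a repressor of Il2, rose in GFP+ cells and the other 17 were not called (1 of 49 probe sets, a share below the 3.4% of all). For Prdm1, Treg mock read 285 and 419, scurfy mock 744 and 388, scurfy Foxp3 492 and 463, Tconv mock 369 and 97.9, and Tconv Foxp3 119 and 42.4. Prdm1 was lowest where Il2 was highest, a link that was not tested, and the first Tconv mock array overlapped the GFP+ arrays. The highest value was again on scurfy mock replicate 1, the array where Klrk1 and Eomes of the NK cell list were raised. Their part was not tested. The difference was 1.76 (SE 0.38, limma adjusted p = 0.0388). The factors that drive Il2, Nfatc1, Rel, Jun and Fos among them, were not called in any comparison.

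Among 10 tested regulators of Il7r and genes of the naive state, Foxp1 was lower in scurfy Foxp3 than in Tconv Foxp3 by 2 probe sets, at -2.40 (SE 0.36, limma adjusted p = 0.0138) and -2.03 (SE 0.40, limma adjusted p = 0.0421). They were 2 of the list's 26 probe sets, where 1.49% of all probe sets were called and 0.359% were called lower. Foxp1 encodes a forkhead factor known to oppose Il7r expression. By the brighter of them (1421142_s_at), Tconv Foxp3 read 490 and 953, scurfy Foxp3 176 and 137, Tconv mock 227 and 175, scurfy mock 78.0 and 156, and Treg mock 395 and 346. The Tconv Foxp3 arrays, lowest for Il7r, were highest for Foxp1. Treg mock had more Foxp1 than Tconv mock by this probe set and was not lower for Il7r. A link between the 2 genes was not tested. S1pr1, a receptor for exit from lymphoid organs, was the list's one gene called in GFP+ against GFP- (1 of 26 probe sets; 2.55, SE 0.50, limma adjusted p = 0.0261). It was also lower in Tconv Foxp3 (37.0 and 39.5) than in Treg mock (446 and 2733), by -4.38 (SE 0.77, limma adjusted p = 0.0443). Foxo1 and Klf2 were not called.

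Of 15 tested kinases, adaptors and other STATs, Pik3r1, a regulatory subunit of PI3 kinase, rose in Treg against Tconv mock (2.08, SE 0.37, limma adjusted p = 0.033). It also rose in GFP+ against GFP- (1.38, SE 0.24, limma adjusted p = 0.0166), as 1 of the list's 40 probe sets in each comparison, against 1.19% and 3.4% of all. Jak1 and Jak3 were not called in any comparison. None of the 3 tested ligands of the gamma chain family or of its 4 other tested receptors was called anywhere. The ligand Il4 stood 4.90 higher in scurfy Foxp3 than in Tconv Foxp3 with a large error (SE 1.58, adjusted p = 0.185).

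None of 9 tested phosphodiesterases other than Pde3b was called in any comparison. Of 12 tested genes of the cyclic AMP pathway, Akap13, which anchors protein kinase A, and Adcy3, an adenylyl cyclase, rose in GFP+ against GFP- (6 of 35 probe sets, 5 of them of Akap13). Akap13 was called by 5 probe sets (1.10 to 1.79, adjusted p = 0.0115 to 0.0437) and Adcy3 by 1 (1.13, SE 0.24, limma adjusted p = 0.0343). Akap13 was also called by 4 probe sets in Treg against Tconv mock (1.72 to 2.52). In Tconv Foxp3 against Treg mock it was called by 1, 1445311_at (-1.83, SE 0.28, limma adjusted p = 0.0241). That probe set read 13.7 and 11.5 in Tconv Foxp3, below the array medians of 24.3 and 24.1, and 73.6 and 99.5 in Treg mock. By its brightest probe set (1433722_at), Akap13 gave 2735 and 3562 for Treg mock, 1918 and 2155 for scurfy mock, 2920 and 1432 for scurfy Foxp3, 652 and 758 for Tconv mock, and 945 and 1106 for Tconv Foxp3. All GFP+ arrays lay above all GFP- arrays.

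**Figure D4:**
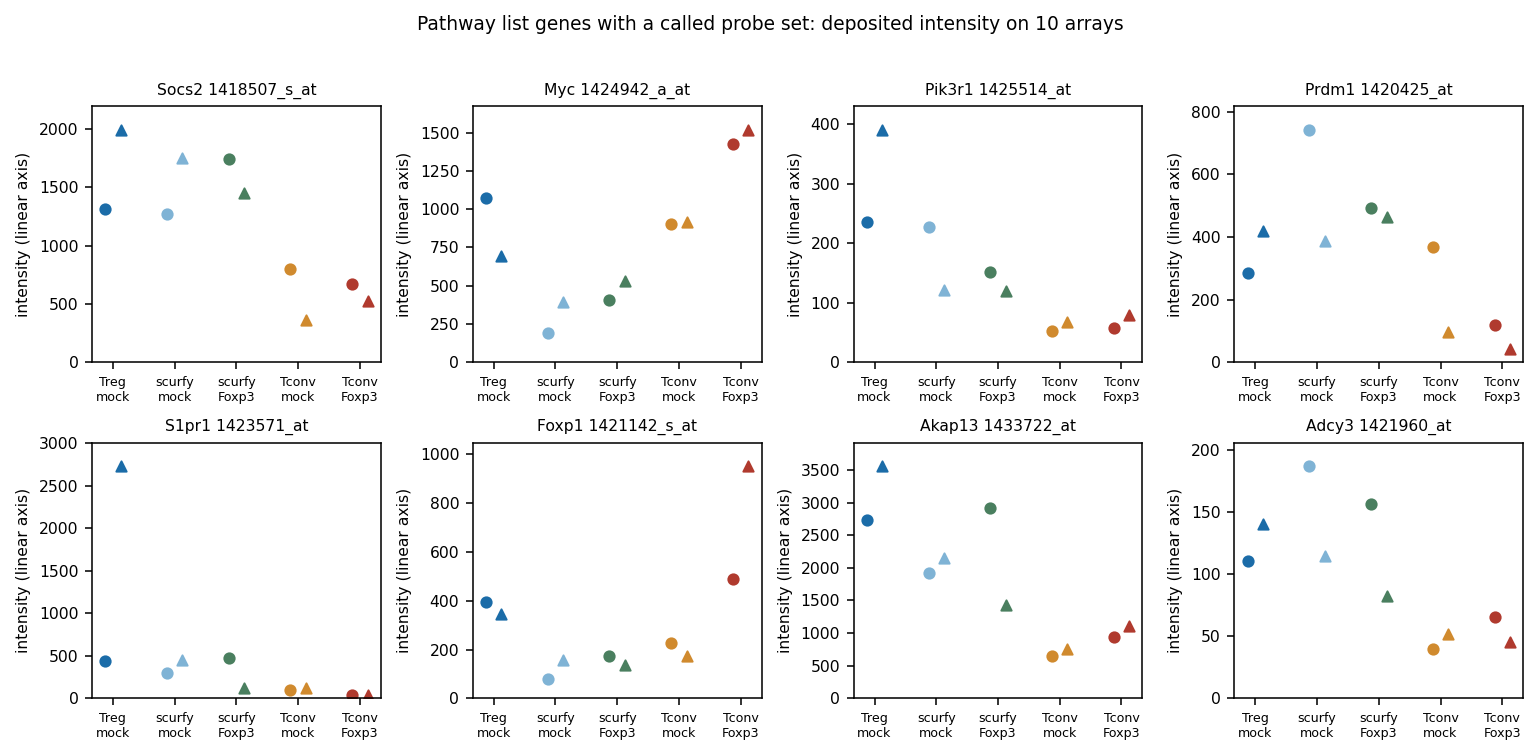
Intensity (vertical axis, linear from 0) of the called pathway genes on every array by group, each by its brightest called probe set, with circles for replicate 1 and triangles for replicate 2. Socs2 and Akap13 are higher on all 6 GFP+ arrays than on the 4 GFP- arrays, and Foxp1 is highest on the 2 Tconv Foxp3 arrays.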

How the data were processed

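The 10 arrays were of the Affymetrix Mouse Genome 430 2.0 type, hybridised with biotin-labelled cDNA made with the NuGEN FL-Ovation kit per the labels. The deposited values are a linear intensity per probe set and array. Per the submitters' processing notes the authors used Affymetrix Expression Console; the sources used here do not name its version, summary method or scaling. Of 45101 probe sets, 64 were controls, 34945 carried 1 symbol, 932 several and 9211 none. Intensities were used as log2(value + 16) without further normalization, and the 21735 probe sets (11337 genes) with 1 symbol that exceeded the median of 2 or more arrays were tested. Every member probe set passed this filter.

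Groups came from the sample titles. limma 3.58.1 in R 4.3.3 (lmFit, eBayes) was fitted over all 10 arrays with 1 mean per group, leaving 5 residual degrees of freedom, to which the prior added 4.79 (prior SD 0.356). Tests are two-sided, with Benjamini-Hochberg adjustment over all tested probe sets in each of 10 comparisons. No statement on depth applies to arrays; the number of arrays limits the precision. The members, the 8 pathway lists and the 8 marker lists (T, CD8 T, NK, B, myeloid, mast and basophil, innate lymphoid and red blood cells) were chosen with earlier results of these data known. Beside the members, the text names list genes that were called, list genes with the smallest p, and the genes most correlated with a member. Alternatives were quantile normalization, a common 75th percentile, pseudocounts of 1 and 64, other filters, 1 value per gene, eBayes with trend and robust options, the compared groups alone, a replicate block, leaving out each array, and 2 settings added after seeing the data. The pipeline was tested on simulated data. Promoter sequences are from RefSeq.

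The other marker lists stayed low relative to the T cell list: the summed CD8 T cell list lay between 51.1 and 109, the myeloid list between 104 and 513, the mast cell and basophil list between 33.3 and 199, and the red blood cell list between 4.14 and 49.2. The innate lymphoid list summed to 312 to 2054, with Gata3, which T cells also express, among its 3 measured genes.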

Additional observations from a re-analysis of the deposited data

Results flagged for a closer look

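The first Il2ra probe set (1420691_at) was flagged because its arrays separated in opposite directions in the 2 kinds of starting cell. Both arrays labelled Tconv Foxp3 read below both Tconv mock arrays (-0.30 on the log2 scale, SE 0.26). Both scurfy Foxp3 arrays read above both scurfy mock arrays (0.13, SE 0.26). Neither effect was called. Groups did not overlap for 58.4% of all probe sets in the first comparison and for 22.9% in the second. The share separating in opposite directions was not counted. The difference between the effects, 0.43, did not pass the limma test (adjusted p = 0.722), and the second Il2ra probe set gave 0.03.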

How the results depend on the processing

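Of 120 member differences (12 probe sets in 10 comparisons), 64 kept their sign in every alternative that gave a value and 108 were never called. In GFP+ against GFP-, 2 member genes were called. The count was 0 with a pseudocount of 1, with no filter and with the mock groups alone, and 1 (Il7r) with a filter at the 75th percentile. The other setting added after seeing the data left out scurfy mock replicate 1 and scurfy Foxp3 replicate 2. Each scurfy group then has 1 array, so its counts are not given. Leaving out each array gave 0 to 2. Some alternatives also called genes that the main fit did not. Il2rb was called in 2 of 20 by its first probe set and in 1 of 19 by its second. Il2ra was called in 1 of 20 by its first. In scurfy Foxp3 against Tconv Foxp3, 1 was called. It was 0 with a pseudocount of 1 and with no filter. It was 2 with a pseudocount of 64 (Il2 and Il2rb) and with the compared groups alone (Il2 and Il7r). With trend and robust options it was 4 (Il2, Il2ra, Il2rb and Il7r). Leaving out each array gave 0 to 2. Where this leaves a group with 1 array, that array is assumed to vary like the others. At a common 75th percentile the called genes were the same. With quantile normalization they were Il2 and Il7r in the first comparison, and Il2rb in place of Il2 (adjusted p = 0.0536) in the second. Calls over all probe sets moved with the setting too. In the first comparison they were 740 of 21735 in the main fit and 438 with a pseudocount of 1. They were 359 of 34945 with no filter and 611 of 11958 with the 75th percentile filter. In the second they were 324 of 21735 in the main fit and 104 of 34945 with no filter. Pseudocounts of 1 and 64 gave 138 and 322 there, the compared groups alone 589, and trend and robust options 483.

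Il2 in GFP+ against GFP- ranged from -2.95 to -1.65 and was called in 8 of 20 alternatives (adjusted p = 0.00549 to 0.181), apart from -0.54 with the mock groups alone. Il2 in scurfy Foxp3 against Tconv Foxp3 ranged from -5.42 to -3.05, and its call was lost without each array of the 2 compared groups. The first Il7r probe set ranged from 1.02 to 1.58 and was called in 10 of 20 (0.0143 to 0.165). Not every alternative could move a result. In a comparison of 2 groups, leaving out an array of another group does not change the difference, only its error. For GFP+ against GFP- the compared groups alone take in every group, so that alternative repeats the main fit. Each of the 24 called probe set differences of the pathway lists kept its sign under every other setting that gave a value. In GFP+ against GFP-, Akap13 1433722_at was called under 17 of 20 settings, Socs2 1418507_s_at in 14 of 20, and Prdm1 and Myc in 11 of 20 each. In scurfy Foxp3 against Tconv Foxp3, Foxp1 1421141_a_at was called in 16 of 19 and 1421142_s_at in 7 of 19. Pik3r1 in Treg against Tconv mock was called in 7 of 19, and S1pr1 in Tconv Foxp3 against Treg mock in 6 of 20.

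Over all probe sets replicate numbers did not mark shared deviations (r from -0.153 to 0.152 over 10 pairs of groups), although Il2 read higher on replicate 2 in all 5 groups. With the replicate number as a block, Tconv Foxp3 against Treg mock went from 0 to 1 called member, Il2 at 3.39 (adjusted p = 0.0172). Probe sets called in the whole table in GFP+ against GFP- were 562 higher and 178 lower, and 671 and 508 at a common 75th percentile. The number of arrays limits every value, and background signal limits the low values of Il2.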
